A study of Homo sapiens with 3 samples.

Results

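The aminoacyl-tRNA synthetases are the enzymes that join each amino acid to its tRNA. The 37 genes described here, of 61193 genes with a deposited value, were taken from a fixed list of names, and each gene's values are the sums over its transcripts. They comprise 19 cytosolic enzymes, whose symbols end in 1 or are FARSA and FARSB, 16 mitochondrial enzymes, whose symbols end in 2, and the scaffold proteins AIMP1 and AIMP2. RNA was measured in 3 independent biological replicates of HEK293T, a human embryonic kidney cell line expressing the large T antigen of SV40. All replicates were untreated cells collected 24 hours after seeding, with 2 ug of total RNA per library, so the design holds 1 condition in 1 cell line and no comparison of treatments. Libraries were made with a QuantSeq 3′ kit, which primes at the poly(A) tail and reads the last part of each mRNA. Although the sample labels name the material genomic DNA, the protocols describe RNA, and the values were treated as RNA-seq. TPM, the unit of level used below, is the count of a transcript divided by its length and scaled so that a library sums to 1000000.

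Cytosolic synthetases charge the tRNAs used by cytosolic ribosomes, and a separate set, encoded in the nucleus and imported, charges the tRNAs made from the mitochondrial genome. GARS1 and KARS1 each encode both a cytosolic and a mitochondrial form and were kept with the cytosolic enzymes, whereas EPRS1 is a fusion that charges both glutamate and proline. The enzymes fall into class I and class II by the fold of their catalytic domain. In animals, several cytosolic enzymes are held together with AIMP1 and AIMP2 in the multisynthetase complex. Genes of several synthetases are known targets of the amino acid response, in which the transcription factor ATF4 binds, with C/EBP partners, a short element known as CARE.

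The study of these cells mapped DNA structures at promoters, so the promoter sequences of the family are given first. RefSeq promoters (GRCh38.p14, 250 bases before to 50 bases after the start) were found for 32 of the 37 genes, and not matched for LARS1, VARS1, YARS1, AARS2 and VARS2. The CARE word TGATGNAA, searched on both strands, was present in 6 of 16 cytosolic promoters (37.5%) and in 1 of 14 mitochondrial promoters (7.14%). Among all 15842 protein-coding promoters of that length the share was 2.53%. The 7 windows are printed because they hold the element named above, with the word in capitals, 5′ to 3′ on the strand of the gene.
AARS1, chr16:70289675-70289704, minus strand: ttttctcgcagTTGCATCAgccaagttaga
CARS1, chr11:3057407-3057436, minus strand: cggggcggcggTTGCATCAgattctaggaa
IARS1, chr9:92293692-92293721, minus strand: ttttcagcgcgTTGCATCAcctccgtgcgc
MARS1, chr12:57488053-57488082, plus strand: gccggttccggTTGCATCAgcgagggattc
NARS1, chr18:57621804-57621833, minus strand: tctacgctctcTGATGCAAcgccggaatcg
TARS1, chr5:33440956-33440985, plus strand: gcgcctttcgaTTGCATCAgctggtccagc
YARS2, chr12:32756076-32756105, minus strand: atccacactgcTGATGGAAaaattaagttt
All 6 cytosolic windows held the same word, TGATGCAA, read on one strand or the other, whereas YARS2 held TGATGGAA. A match describes the letters and does not show that a factor binds there.

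The study concerned i-motifs, 4-stranded structures that C-rich DNA can form, and G-quadruplexes, their G-rich counterparts, so the same promoters were searched for at least 4 tracts of 3 or more Cs or Gs with loops of 0 to 7 bases. Such a stretch was present in 8 of 32 promoters, or 25%, namely AARS1, FARSA, SARS1, WARS1, FARS2, IARS2, LARS2 and MARS2. AARS1 met the rule only because unbroken runs may be divided, since its stretch holds 2 long runs of G parted by 1 base, and the other 7 held at least 4 separate tracts. Its share among all protein-coding promoters was 32.5%. The stretches of SARS1 and IARS2 are printed as those with the most C-tracts on the strand of the gene, and that of MARS2 as the one with the most G-tracts, with the tracts in capitals.
SARS1, chr1:109213788-109213829, plus strand: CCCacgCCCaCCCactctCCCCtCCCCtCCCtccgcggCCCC
IARS2, chr1:220094060-220094112, plus strand: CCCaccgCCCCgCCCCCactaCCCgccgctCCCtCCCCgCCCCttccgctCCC
MARS2, chr2:197705246-197705281, plus strand: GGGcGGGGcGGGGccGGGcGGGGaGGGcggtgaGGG
IARS2 had 8 C-tracts, SARS1 had 7, and MARS2 had 7 G-tracts. Of the 32 genes with a promoter, the 8 with such a stretch had a median mean level of 39.6 TPM, between 0 and 378, and the 24 without it a median of 6.67 TPM, between 0 and 322. The ranges covered each other nearly throughout, and no test was made.

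Libraries held between 6262175 and 8521624 counts, of which the synthetase genes took 26834 to 34782. A count of 0 allows up to 3 counts, equal to at most 0.479 counts per 1000000 counts (CPM). This limit covers the error of counting and no other, since the reads carry no molecular identifiers. Transcripts of the mitochondrial genome took 9.59% of the counts in replicate 1, 5.70% in replicate 2 and 25.8% in replicate 3, and 44.2% of the TPM of replicate 3. Since TPM is a share, a nuclear gene reads lower in replicate 3 wherever this share is counted, and replicate differences are therefore given as CPM over the counts outside the mitochondrial genome. Of 8 genes used as HEK293T markers, 4 reached 1 TPM (LIN28B, INA, PAX2 and KRT8), VIM had 0, 6 and 5 counts, and KRT18, NEFL and NEFM had 0. Among markers of other cells, PTPRC, CDH5 and ALB had 0 counts, PECAM1 had 0, 2 and 1, and COL1A1 stood at 24.8 ± 0.33 TPM (SD, n = 3). Counts were made per transcript, and EEF1A1, one of the most abundant human mRNAs, had only 6, 1 and 7 counts, so a low value in these tables cannot be read as a low level of mRNA.

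Synthetase mRNAs ranged from 0 to 378 TPM. A mean of at least 1 TPM was reached by 25 of the 37 genes, against 38.2% of the 19926 protein-coding genes. These were 14 cytosolic enzymes, 10 mitochondrial enzymes and AIMP1. Quartiles of all genes with a mean of at least 1 TPM, 2.40 and 24.1 TPM, served to name levels low, medium and high. Those genes were of any type, not protein-coding alone. High levels were found for 12 of the 37 genes, 6 cytosolic and 6 mitochondrial, against 12.5% of protein-coding genes. At the other end, 10 of the 37 genes had at most 3 counts in every replicate, against 50.9% of protein-coding genes.

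**Figure D1:**
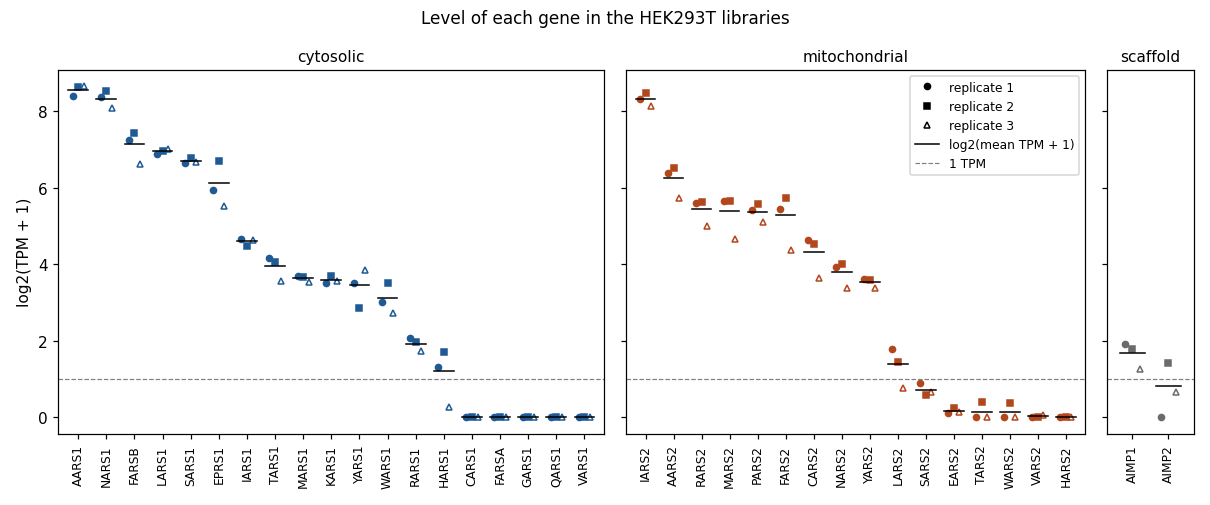
Level of each synthetase gene in each HEK293T replicate, as log2(TPM + 1) on the vertical axis, with genes ordered by mean level within the cytosolic, mitochondrial and scaffold groups on the horizontal axis. Symbols stand for the replicates, the short black line for the log2 of the mean TPM + 1 and the dashed line for 1 TPM. Both enzyme groups run from above 300 TPM down to 0, with 5 cytosolic genes at 0 counts.

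Among cytosolic enzymes, the alanyl enzyme AARS1 was the highest, with 337, 394 and 402 TPM in replicates 1, 2 and 3. NARS1, the asparaginyl enzyme, followed at 329, 367 and 269 TPM. AARS1 lay above NARS1 within each replicate, but the ranges of the 2 genes overlapped across replicates. In TPM both lay above every other cytosolic gene in every library. FARSB, the beta subunit of the phenylalanyl enzyme, had 150, 173 and 96.9 TPM, and LARS1, the leucyl enzyme, had 117, 125 and 127 TPM. These genes changed order between replicates and could not be ranked. SARS1, the seryl enzyme, had 99.4, 109 and 100.3 TPM, and the glutamyl-prolyl fusion EPRS1 had 60.1, 103 and 44.8 TPM. The order by TPM depended on division by length. In CPM, FARSB had 657, 716 and 513 against 587, 621 and 581 for NARS1. The mean of EPRS1 was 222 CPM and that of SARS1 56.4 CPM. EPRS1 was the least even of the high cytosolic genes in TPM, with replicate 2 the highest, although not in the counts outside the mitochondrial genome given below, where AARS1 was.

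A middle group of cytosolic enzymes lay between 2.80 and 23.2 TPM. Isoleucyl IARS1 had 24.3, 21.4 and 24.1 TPM, and threonyl TARS1 had 17.1, 15.7 and 10.7 TPM. Methionyl MARS1 (11.4 ± 0.65 TPM, SD, n = 3), lysyl KARS1 (11.1 ± 0.81), tyrosyl YARS1 (10.0 ± 3.6) and tryptophanyl WARS1 (7.70 ± 2.4) could not be fully ordered, since each neighbouring pair changed places in at least 1 replicate. MARS1 and KARS1 both lay above WARS1 in every replicate. Arginyl RARS1 had 2.80 ± 0.46 TPM and histidyl HARS1 1.33 ± 1.0 TPM, the latter from 12, 17 and 5 counts. Cysteinyl CARS1, glycyl GARS1, glutaminyl QARS1, valyl VARS1 and FARSA, the alpha subunit of the phenylalanyl enzyme, had 0 counts in all 3 libraries. FARSA and FARSB form 1 enzyme in equal numbers, yet FARSB had 13465 counts in all and FARSA 0.

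Mitochondrial enzymes were led by isoleucyl IARS2, with 321, 355 and 281 TPM, more than 3 times the next gene in every replicate. Alanyl AARS2 followed with 82.0, 90.9 and 51.8 TPM. Arginyl RARS2 (42.3 ± 9.7 TPM, SD, n = 3), methionyl MARS2 (41.1 ± 15), prolyl PARS2 (40.5 ± 6.5) and phenylalanyl FARS2 (38.2 ± 16) changed order between replicates. Cysteinyl CARS2 had 19.1 ± 6.7 TPM, asparaginyl NARS2 12.9 ± 3.0 and tyrosyl YARS2 10.5 ± 0.98, in that order in each replicate although with overlapping ranges. In CPM, without division by length, CARS2 was the lowest of them, with a mean of 9.39 against 21.5 for NARS2 and 15.1 for YARS2. Leucyl LARS2 had 2.45, 1.74 and 0.706 TPM. Below 1 TPM lay seryl SARS2 with 4, 2 and 4 counts and glutamyl EARS2 with 1, 2 and 2. Threonyl TARS2 and tryptophanyl WARS2 had 1 count each, both in replicate 2, valyl VARS2 had 1 in replicate 3, and histidyl HARS2 had 0. The scaffold AIMP1 had 25, 20 and 13 counts (2.21 ± 0.73 TPM), and AIMP2 had 0, 5 and 3 (0.752 ± 0.85 TPM).

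To compare the groups, the median over all listed genes was taken in each replicate. Cytosolic enzymes had a median of 10.5, 11.6 and 10.7 TPM and mitochondrial enzymes of 12.7, 13.0 and 9.46 TPM. The log2 ratio of the cytosolic to the mitochondrial median was -0.28, -0.17 and 0.18, with a mean of -0.087 ± 0.24 (SD, n = 3), and so changed sign between replicates (exact two-sided sign-flip permutation test p = 0.75, adjusted p = 0.75 over 3 such ratios). With 3 replicates this test cannot give a p under 0.25. In CPM, without division by length, the cytosolic median was below the mitochondrial one in every replicate, with 5.84, 7.35 and 7.39 against 13.4, 12.5 and 11.3 CPM (log2 ratio of the medians of the means -0.78, exact sign-flip permutation p = 0.25). The sums lay the other way, with 1178, 1354 and 1118 TPM for the cytosolic and 637, 693 and 473 TPM for the mitochondrial genes. AARS1, NARS1, FARSB, LARS1 and SARS1 held most of the cytosolic sum, and IARS2 most of the mitochondrial one. The direction of the median ratio in TPM depended on which genes and replicates entered it. Without replicate 2 it was 0.032, among genes with 10 or more counts in each replicate it was 0.23, and among genes with their own 3′ end, as defined below, it was 1.58 (1.29, 1.37 and 1.64 in the replicates). The last set holds 5 cytosolic genes, of which GARS1 and VARS1 had 0 counts, and 7 mitochondrial genes.

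Of 16 amino acids with a listed cytosolic and mitochondrial enzyme, 9 had more TPM of the cytosolic gene in every replicate (alanine, glutamate, histidine, leucine, asparagine, proline, serine, threonine and tryptophan). For phenylalanine FARSB was higher than FARS2, but FARSA, the lower subunit by which the amino acid was counted, was at 0. The cytosolic gene was lower in every replicate for cysteine, isoleucine, methionine and arginine. In 8 amino acids a cytosolic and a mitochondrial gene both had 10 or more counts in each replicate, with FARSB standing for the cytosolic side of phenylalanine. The largest excess of these was leucine, where LARS1 stood above LARS2 by 5.57, 6.16 and 7.49 on the log2 TPM scale. LARS2 had 95.2% of its counts on a transcript of 10049 bases and 0 on the canonical one, which limits this ratio. NARS1 stood above NARS2 by 4.54, 4.61 and 4.82, and this was the only pair in which both genes could be placed and had their own 3′ end. AARS1 exceeded AARS2 by 2.37 ± 0.51, FARSB exceeded FARS2 by 1.95 ± 0.30 and EPRS1 exceeded PARS2 by 0.70 ± 0.39 (log2 TPM, SD, n = 3). In the opposite direction, the log2 ratio of IARS1 to IARS2 was -3.72, -4.05 and -3.54, and the ratio of MARS1 to MARS2 was -1.77 ± 0.52. YARS1 and YARS2 were not separable, with log2 ratios of -0.11, -0.82 and 0.50 (exact sign-flip permutation p = 0.75). Of 17 pairs, 11 could be given a ratio in every replicate, and the other 10 of them had the same sign in all 3 replicates, where the exact sign-flip permutation test gives its smallest p, 0.25, and an adjusted p of 0.275 over the 11. Without division by length the signs of these 11 mean ratios were the same, but the sizes were not. LARS1 to LARS2 was then 5.41 and FARSB to FARS2 4.05 (log2 CPM). EPRS1 to PARS2 was 1.74, AARS1 to AARS2 1.91, MARS1 to MARS2 -4.04 and IARS1 to IARS2 -5.81 on that scale. EPRS1 to EARS2, SARS1 to SARS2 and RARS1 to RARS2 rest on members with few counts. So do the calls for histidine, threonine and tryptophan, where the mitochondrial gene had at most 1 count in all.

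**Figure D2:**
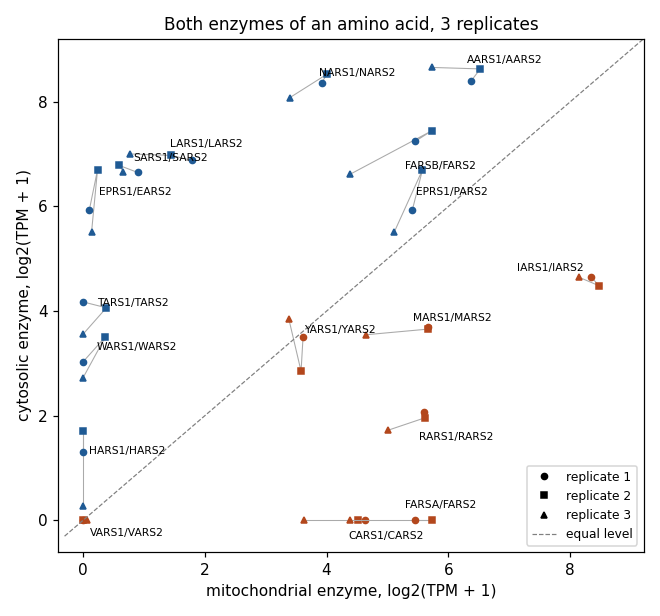
TPM of the cytosolic enzyme (vertical) against that of the mitochondrial enzyme for the same amino acid (horizontal), both as log2(TPM + 1), with 1 symbol per replicate joined by lines and the dashed line marking equal levels. Blue pairs have the higher mean log2 level on the cytosolic side and orange pairs on the mitochondrial side, and pairs on an axis have 1 gene at or near 0 counts.

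By structural class, the 10 cytosolic class I genes had a lower median than the 9 class II genes in every replicate, with log2 ratios of -0.96, -0.92 and -0.42 (exact sign-flip permutation p = 0.25, adjusted p = 0.375). EPRS1, whose glutamyl part is class I and prolyl part class II, was counted in class I, and without it the log2 ratio of the medians of the means was -0.91 against -0.71 with it. The class I genes summed to 247 ± 28 TPM and the class II genes, which include AARS1, NARS1, FARSB and SARS1, to 969 ± 94 TPM (SD, n = 3). The 7 cytosolic enzymes of the multisynthetase complex had a median of 11.4 TPM and the 12 others of 8.85 TPM, a log2 ratio of 0.44, 0.54 and 0.41 (exact sign-flip permutation p = 0.25, adjusted p = 0.375). This ratio turned to -2.15 among genes with 10 or more counts in each replicate, and to -0.11 without division by length. Within the complex LARS1 (123 TPM) and EPRS1 (69.2 TPM) were high, IARS1, MARS1 and KARS1 were medium, RARS1 was near the lower bound of medium, and QARS1 had 0 counts.

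Where in each gene the counts fell differed widely between members. The tables list 468 transcripts of the 37 genes, of which 75 had a count. Over all members 96.3% of counts lay on the canonical transcript of the annotation, because AARS1, EPRS1, FARSB, LARS1, NARS1, IARS2 and AARS2 each had over 95% there and supplied most counts. In 15 genes with counts, 7 cytosolic, 7 mitochondrial and AIMP2, no count lay on the canonical transcript. Among them, VARS2 had no canonical transcript in the tables, so its 0 was not measured. No share over all genes is set beside the count of 15 genes or the transcript shares below. They are therefore not read as a trait of the synthetase genes. Leaving out AARS1, EPRS1, FARSB, LARS1 and NARS1, the other cytosolic enzymes had 10.2% of their counts on canonical transcripts and 32.6% on transcripts annotated as retained introns. All 298 counts of IARS1, 99.6% of those of YARS1, 97.1% of HARS1, 86.7% of RARS1 and 76.9% of MARS1 lay on retained-intron transcripts. SARS1 had 99.2% of its 1242 counts on an 804-base transcript without a defined coding sequence, and CARS2 70.6% of its 201 counts on a 756-base transcript of the same kind. LARS2 had 95.2% of its 187 counts on a coding transcript of 10049 bases. Those of MARS2, PARS2 and YARS2 lay entirely on the canonical transcript, and MARS2 and PARS2 have 1 listed transcript each. For SARS1 and IARS1 the TPM therefore describes a short listed transcript and not the main mRNA, and the ratio of these genes to their partners carries that limit. For HARS1, KARS1, MARS1, RARS1, WARS1, CARS2 and LARS2 the canonical transcript also had 0 counts, and for YARS1 it had 1. Their TPM describes other listed transcripts, and ratios with these genes carry the same limit. RARS2 had 22.4 TPM on the canonical transcript and 18.7 on a retained-intron transcript of 672 bases. TARS1 had 4.28 TPM on the canonical transcript and 8.96 on a retained-intron transcript of 633 bases. The TPM of these genes therefore rests in part on a short listed transcript.

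**Figure D3:**
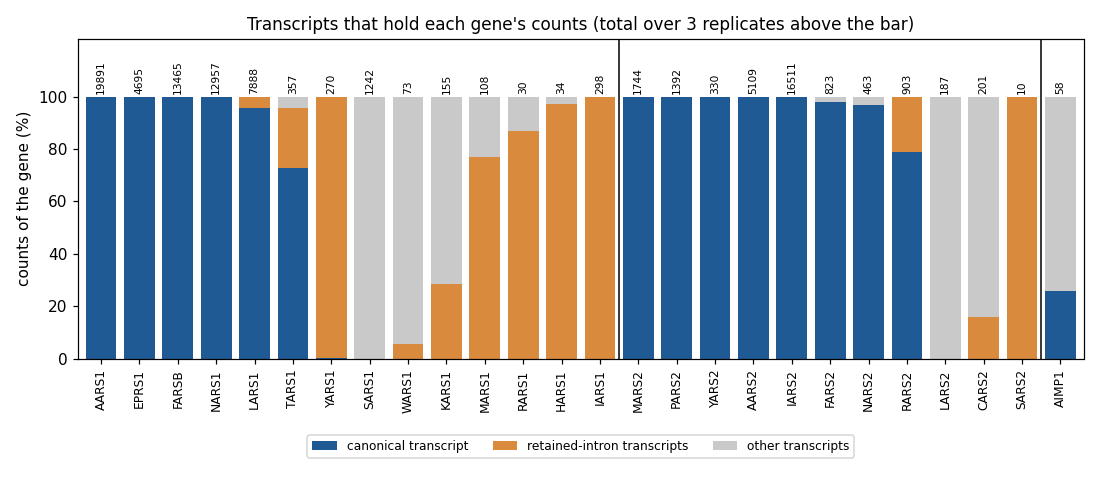
Share of each gene's counts, in percent on the vertical axis, that lay on the canonical transcript, on retained-intron transcripts or on other transcripts, for the 26 genes with at least 10 counts, with the gene's total count over 3 replicates above its bar and lines separating cytosolic, mitochondrial and scaffold genes. AARS1, EPRS1, FARSB and NARS1 lie almost wholly on the canonical transcript, whereas SARS1, WARS1, KARS1, MARS1, RARS1, HARS1 and IARS1 have 0 counts there.

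As the libraries read 3′ ends, the last 300 exonic bases of each canonical transcript were examined for bases found in that listed transcript alone on its strand. Transcripts whose deposited length differs from GENCODE v44 were left out, since their ends are not known. For VARS2 the canonical transcript was not listed at all. This left 26 of the 37 genes. AARS1, CARS1, IARS1, KARS1, TARS1, YARS1, EARS2, FARS2, SARS2, VARS2 and WARS2 could not be placed. In 6 genes (FARSA, HARS1, MARS1, QARS1, CARS2 and LARS2) the window was shared throughout, against 35.1% of 14388 protein-coding genes. They had a median of 23.7 counts per library. In 7 genes (EPRS1, RARS1, SARS1, WARS1, HARS2, TARS2 and AIMP2) fewer than 100 bases were their own, with a median of 10.0 counts. The 13 genes with 100 or more own bases had a median of 464 counts and 41.1 TPM, against 1.63 TPM for the 13 without. Across protein-coding genes the medians of these classes were 0.333, 0.667 and 35.7 counts. The class with 100 or more own bases was the highest in both sets. The classes below 100 own bases stood in the opposite order among the members. Spearman's rho between the share of own bases and the mean count was 0.55 across the 26 members and 0.40 across the 14388 genes, as a description over genes that share the same libraries and are not independent replicates. GARS1 and VARS1 went against this relation, with 100% and 51.7% own bases and 0 counts, as did EPRS1, with 29.7% and 4695 counts. With every transcript placed at its GENCODE v44 coordinates other genes went against it. GARS1 then had 0% and 0 counts, but LARS1 and RARS2 also had 0% with 7888 and 903 counts, NARS2 had 13.7% with 463 counts, and AARS1 had 3.00% with 19891 counts.

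Replicates differed beyond counting noise in about the same share of these genes as of all genes. An index of dispersion, computed from counts scaled to the total outside the mitochondrial genome, passed the 95% point of its chi-square distribution in 15 of 25 members with at least 30 counts, against 59.5% of 10882 genes. Without replicate 3 it passed in 4 of 23 members, against 27.5% of 9129 genes. In CPM over the counts outside the mitochondrial genome, AARS1 had 838, 890 and 1475, LARS1 had 364, 363 and 543, and SARS1 had 57.5, 57.2 and 85.3. In these 3 genes replicates 1 and 2 lay close together and replicate 3 stood apart above them. IARS2 had 807, 813 and 1043, with a smaller excess in replicate 3, NARS1 had 650, 658 and 783, and FARS2 had 48.2, 51.1 and 34.0, with replicate 3 below. EPRS1 differed in replicate 2 instead, with 209, 325 and 230. For the 17 members with at least 50 counts in every library, the log2 ratio of replicate 3 to the mean of the others had a median of 0.37 in 8 cytosolic genes and -0.066 in 9 mitochondrial genes, beside 0.083 in 5656 genes. The ratio was above 0 in 9 of the 17, against 58.1% of the 5656 genes. All 17 lay inside the central range of those genes, -0.57 to 0.87. YARS1, with 84, 46 and 140 counts, had a ratio of 1.08 and fell short of the count minimum in replicate 2. Of the genes with the CARE word printed above, AARS1, IARS1, NARS1, TARS1 and YARS2 had enough counts, and their ratios were 0.77, 0.47, 0.26, -0.17 and 0.39. Replicate 3 is also the library with the largest mitochondrial share, and the part of that share in these differences was not tested.

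**Figure D4:**
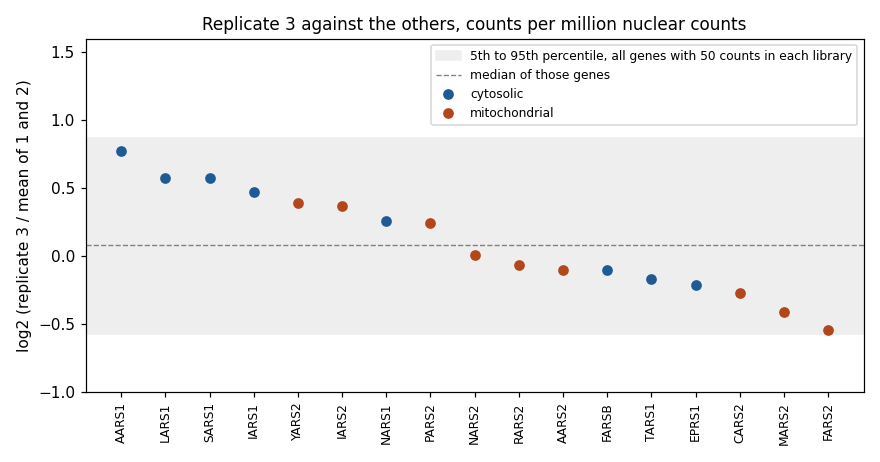
Log2 ratio of replicate 3 to the mean of replicates 1 and 2, from CPM over the counts outside the mitochondrial genome, for the 17 synthetase genes with at least 50 counts in every library. The grey band spans the 5th to the 95th percentile and the dashed line the median of all 5656 such genes. The highest 4 are cytosolic genes, and the lowest 3 are mitochondrial genes.

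Several members start head to head with another gene, at a distance given between annotated starts. HARS1 and HARS2 start 85 bases apart on opposite strands, and had 34 and 0 counts in all. KARS1 starts 108 bases from TERF2IP, a telomere protein gene, which had 536, 617 and 355 TPM where KARS1 had 10.5, 12.0 and 10.9. RARS2 starts 148 bases from ORC3, of the origin recognition complex, which had 69.1 ± 6.1 TPM (SD, n = 3), and YARS1 295 bases from S100PBP, at 40.7 ± 2.1 TPM. SARS2 starts 181 bases from MRPS12, of the mitochondrial ribosome, which had 19.7 ± 8.4 TPM against 0.653 ± 0.19 for SARS2. FARS2 starts 563 bases from LYRM4, an iron-sulfur cluster assembly gene, at 25.3 ± 3.9 TPM. AIMP2 and the mismatch repair gene PMS2, 223 bases apart, had 0.752 and 1.56 TPM, and AIMP1 and TBCK, 341 bases apart, had 2.21 and 2.73 TPM. EARS2 and UBFD1, 377 bases apart, both stayed below 1 TPM. CARS1, TARS1, WARS2 and YARS2 start near lncRNA genes, of which WARS2-AS1 (6.55 TPM) was the highest. At their 3′ ends, the window of AIMP2 overlaps EIF2AK1, the window of HARS1 overlaps WDR55 and that of MARS1 overlaps DDIT3, all on the opposite strand. Since the strand setting of the counting is not stated in the sources used here, reads from such overlaps cannot be told apart.

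Other genes of tRNA charging and elongation give the setting. Of a list of 18 (the third scaffold EEF1E1, amidotransferase subunits, proofreading and peptidyl-tRNA enzymes and elongation factors), 15 reached 1 TPM, with a median of 3.86 TPM beside 10.5 TPM for the 37 members. EEF1E1, known also as AIMP3, was the highest, with 799, 804 and 429 TPM, far above AIMP1 and AIMP2, and the D-aminoacyl-tRNA deacylase gene DTD2 was the lowest, with 0 counts. Of 16 pseudogenes named after a member, 12 had 0 counts and none reached 1 TPM. KARS1P1 was the highest of them, with 5, 8 and 3 counts, so little of the counts was placed on these copies.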

How the data were processed

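The authors deposited, per replicate, a count, a length in bases and a TPM for each of 247541 transcripts. The deposited counts are whole reads per transcript without normalization, and the TPM deposited by the authors is count over length, rescaled to 1000000. This was checked by recomputation. The submitters' processing notes name Trimmomatic 0.38.0, HISAT2 2.2.1, featureCounts 2.2.1 and hg38, whereas the annotation release, strand setting and treatment of reads on several transcripts are not given in the sources used here. Because the libraries are 3′ libraries, division by length lowers long transcripts.

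Identifiers were joined without version to GENCODE v44 (223558 transcripts of 61193 genes), and counts and TPM were summed per gene. Of the matched transcripts, 94.0% had the same length as in v44. Unmatched transcripts, 0.158% to 0.166% of the counts, stayed in the totals. The library totals were 7019253, 6262175 and 8521624 counts. Promoters are RefSeq's. All 37 members are named, with the highest and lowest of a partner list (some of whose planned genes are not reported here), genes starting within 1 kb and pseudogenes. KARS1P1 and EEF1A1 were singled out after their values were seen. The members and lists were chosen with earlier results of these data known. With 1 condition no groups were compared, and ratios within a library were tested by exact sign-flips over replicates with Benjamini-Hochberg adjustment. On simulated counts the dispersion index passed its 95% point in 89.5% of 200 genes changed 2-fold in 1 replicate and in 5.02% of unchanged genes. Alternatives were the unit, mitochondrial genes, transcripts, thresholds, pseudocount and replicates. Python 3.11.15, numpy 2.4.6, pandas 2.3.3, scipy 1.17.1 and matplotlib 3.10.9 were used.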

Additional observations from a re-analysis of the deposited data

How the results depend on the processing

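Samples could not be paired across conditions because all belong to 1 condition, and the ratios were paired within each library. The log2 ratio of the cytosolic to the mitochondrial median, -0.077 from the mean TPM, reversed to 0.23 with at least 10 counts in every replicate, 1.58 with own 3′ ends, 1.79 with own 3′ ends at GENCODE v44 coordinates (added after seeing the data), 0.51 as a mean of log2(TPM + 1) and 0.53 with a pseudocount of 0.1. It was -0.78 in CPM, and leaving out each replicate gave -0.19 to 0.032, above 0 without replicate 2. The cytosolic and mitochondrial medians were 15.7 and 16.3 TPM without the mitochondrial genome, 0 and 5.27 on the canonical transcript alone (where no ratio could be formed), 46.2 and 39.4 with at least 10 counts, 123 and 41.1 with own 3′ ends, and 140.1 and 40.5 with own 3′ ends at v44 coordinates. VARS2, whose canonical transcript was not listed, entered the mitochondrial median on the canonical transcript as 0. The cytosolic median was 7.13 CPM.

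The class I to class II ratio, -0.71, stayed below 0, at -2.00 in CPM, -2.81 with at least 10 counts, -1.19 with own 3′ ends (2 genes against 3), -0.91 without EPRS1 (added after seeing the data), -3.54 without GARS1 and KARS1, and -1.41 and -1.65 as means of log2 with pseudocounts of 1 and 0.1. Leaving out each replicate gave -0.94 to -0.58. The complex to free ratio, 0.37, reversed to -0.11 in CPM and -2.15 with at least 10 counts, and was 0.81 with own 3′ ends (LARS1 alone against 4 genes, of which GARS1 and VARS1 had 0 counts), 0.79 without GARS1 and KARS1, and 0.29 and 0.92 as means of log2. Leaving out each replicate gave 0.31 to 0.46. The number of genes with at least 1 TPM, 25, was 14 on canonical transcripts. The number of amino acids with the cytosolic gene higher was 9 of 16, 5 of 8 with at least 10 counts and 1 of 1 with own 3′ ends. The number of genes spread beyond counting noise, 15, was 4 to 16 with a replicate left out. The median with own 3′ ends, 41.1 TPM, was 64.1 CPM and 56.3 TPM without the mitochondrial genome, and that without own ends, 1.63 TPM, was 7.70 at v44 coordinates. Of the 37 gene levels, 16 moved by more than 1 SD on canonical transcripts, 20 without the mitochondrial genome and 21 in CPM. Numbers in CPM were set directly against TPM, and leaving out the mitochondrial genome raises every nuclear gene with counts. The 20 and 21 therefore reflect a change of scale and do not measure how stable a level is. By the error of counting alone, a gene with 0 counts could not be told from one below 0.479 CPM at these depths. That limit does not bound the level of its mRNA, since the abundant EEF1A1 had only 6, 1 and 7 counts.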

Other observations

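A list of 22 genes of the amino acid response, to which several synthetase genes belong, was looked at after the values of the synthetases had been seen. Of its 14 genes with at least 50 counts in every library, 13 were higher in replicate 3 than the mean of replicates 1 and 2 in CPM over the counts outside the mitochondrial genome, against 58.1% of all 5656 such genes, with a median log2 ratio of 1.11 beside 0.083 for those. PSAT1, of serine synthesis, had 12417, 12382 and 32431 counts, the cystine transporter gene SLC7A11 had 1612, 1524 and 5693, CHAC1, which degrades glutathione, had 638, 1126 and 3031, and ASNS, the asparagine synthetase, had 60, 52 and 187. Library totals were 7019253, 6262175 and 8521624. ATF5 went the other way, with 321, 265 and 217 counts. The list cannot be read for ATF4 and DDIT3, which had at most 5 counts in any library. Replicate 3 is a single library, and no test was made.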
